A study of Mus musculus with 6 samples.

Results

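Schwann cells are the glia of peripheral nerves. Myelinating Schwann cells wrap an axon in a compact membrane sheath held together by proteins such as myelin basic protein. After a nerve is cut, as happens in every deep skin wound, Schwann cells lose their sheath genes and take on an immature, repair state in which the p75 neurotrophin receptor Ngfr is high. The 8 genes described here belong to this lineage, 8 of 26644 genes listed in the tables of the series. Mbp, Pmp22, Prx and Mag mark the myelinating state, and Cdh19, Sox10, Ngfr and Foxd3 are genes of immature or repair Schwann cells, although Sox10 stays on through the whole lineage. They were chosen by name, with their C-PC over control ratios in these libraries already known, so those ratios are a description and carry no test.

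RNA from mouse skin was sequenced in 6 libraries taken early, midway and late in wound healing. The wounds under test received C-phycocyanin (C-PC), a blue pigment protein of Spirulina, a cyanobacterium, and the controls of each stage were untreated. The groups are early C-PC, early control, middle C-PC, middle control, late C-PC and late control, each with 1 library and hence no replicate. The sources used here do not give the strain, age, dose, days after wounding or number of animals per library, and nothing says whether libraries came from separate animals. The libraries held 15863637 to 18028674 reads on genes.

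The libraries differed in their tissue make-up. Basal keratinocyte markers (Krt5, Krt14, Krt15, Col17a1 and Trp63) summed to 2458 CPM (reads scaled to a common library size, with trimmed mean normalisation over the 6 libraries) in late C-PC and 1194 in middle control, and to between 4.18 and 17.7 CPM in the other libraries, where up to 3 of the 5 were at 0 reads although the label is skin. The 8 skeletal muscle markers summed to 186729 CPM in middle C-PC and 181783 in late control, and to between 1286 and 9126 CPM elsewhere. Across 16040 genes, the Spearman correlation was 0.980 between middle C-PC and late control, above that of every other pair, and 0.755 between middle C-PC and middle control.

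Promoter sequence is shown for Mag, Prx and Foxd3, the 3 members whose C-PC over control ratio was at least 2-fold up at one stage and at least 2-fold down at another. Each line gives the 250 bases before the RefSeq start on build GRCm38.p6, read along the gene, and capitals mark a match to the SOX core ACAAAG or ACAATG or to the EGR core GTGGGCG on either strand. SOX10 and EGR2 are transcription factors of the myelin programme in rodents. Mag lies at chr7:30914923-30915172 on the minus strand, Prx at chr7:27499074-27499323 on the plus strand and Foxd3 at chr4:99656049-99656298 on the plus strand.
Mag: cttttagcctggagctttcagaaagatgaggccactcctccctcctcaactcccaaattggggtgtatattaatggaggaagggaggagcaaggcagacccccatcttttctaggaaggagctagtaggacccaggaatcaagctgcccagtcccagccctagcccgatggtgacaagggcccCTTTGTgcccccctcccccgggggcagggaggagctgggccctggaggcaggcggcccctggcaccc
Prx: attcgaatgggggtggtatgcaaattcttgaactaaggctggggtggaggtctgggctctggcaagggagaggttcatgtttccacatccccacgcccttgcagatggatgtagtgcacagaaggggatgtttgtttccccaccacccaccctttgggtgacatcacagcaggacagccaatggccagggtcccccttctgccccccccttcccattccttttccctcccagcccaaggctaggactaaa
Foxd3: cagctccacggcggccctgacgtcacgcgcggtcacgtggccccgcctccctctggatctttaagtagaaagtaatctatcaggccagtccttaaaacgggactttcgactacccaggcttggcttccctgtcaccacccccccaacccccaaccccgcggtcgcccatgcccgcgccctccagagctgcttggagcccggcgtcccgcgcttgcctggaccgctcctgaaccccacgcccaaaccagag
The window of Mag held ACAAAG on the opposite strand at position -67 from the start, while those of Prx and Foxd3 held none of the 3 motifs. Over all 32851 windows of this length, 25.2% held a SOX core in either form and 7.02% held the EGR core. RefSeq listed 10 windows for 5 of the 8 members, and 2 of them held a SOX core. A match is a string of letters and not a measured site.

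Mbp encodes myelin basic protein, which binds the inner faces of the myelin membrane together. Its level was 51.6 CPM in early C-PC and 43.0 in early control, 71.5 in middle C-PC and 43.3 in middle control, and 58.2 in late C-PC and 291 in late control. Late control stood apart from the other 5 libraries, which lay within 43.0 to 71.5 CPM. The Mbp locus also makes a longer set of transcripts in blood cells, and the tables give 1 value per gene. Pmp22 (ENSMUSG00000018217, chromosome 11, 63128982 to 63159547, GRCm38) encodes peripheral myelin protein 22, a membrane protein of compact myelin that fibroblasts and epithelia also make. It stood at 182 CPM in early C-PC and 144 in early control, 140 in middle C-PC and 150 in middle control, and 103 in late C-PC and 326 in late control. Late control was again the highest library, and late C-PC the lowest.

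Prx (ENSMUSG00000053198, chromosome 7, 27499324 to 27520214) encodes periaxin, which links the outer Schwann cell membrane to the dystroglycan complex. It stood at 15.3 CPM in early C-PC and 9.88 in early control, 24.2 in middle C-PC and 6.36 in middle control, and 24.0 in late C-PC and 77.9 in late control. Its range of 12.3-fold between the highest and the lowest library was the widest among the 8 genes. The antisense gene Gm15541 shares 300 exon bases with Prx, but held between 2 and 9 reads per library against 111 to 955 for Prx. Mag (ENSMUSG00000036634, chromosome 7, 30899176 to 30914873), the myelin-associated glycoprotein, is an adhesion protein of the membrane layer that faces the axon. It was the scarcest of the 4, with 44 reads in early C-PC and 31 in early control, 28 in middle C-PC and 14 in middle control, and 18 in late C-PC and 39 in late control. In CPM its 95% counting intervals overlapped between every pair of neighbours in the order of levels, so neighbours in that order were not separated at this depth.

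Sox10 (ENSMUSG00000033006, chromosome 15, 79154908 to 79165240), the transcription factor that Schwann cells and melanocytes need, stood at 6.29 CPM in early C-PC and 1.23 in early control, 5.94 in middle C-PC and 2.29 in middle control, and 13.6 in late C-PC and 10.9 in late control. Each C-PC library was above its own control, and the intervals of the late pair overlapped. Foxd3 (ENSMUSG00000067261, chromosome 4, 99656299 to 99658622), a neural crest transcription factor that falls as Schwann cells mature, had 55 reads in early C-PC and 12 in early control, 35 in middle C-PC and 34 in middle control, and 31 in late C-PC and 75 in late control. Unlike Sox10, it was highest in late control, at 6.12 CPM.

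Cdh19 (ENSMUSG00000047216, chromosome 1, 110888326 to 110977584) encodes a cadherin that marks Schwann cell precursors in rodents. It stood at 9.67 CPM in early C-PC and 1.19 in early control, 4.63 in middle C-PC and 1.60 in middle control, and 6.56 in late C-PC and 4.49 in late control. The highest library was early C-PC and the lowest was early control, an 8.14-fold range. Ngfr (ENSMUSG00000000120, chromosome 11, 95568818 to 95587735), the p75 receptor for neurotrophins, stood at 13.4 CPM in early C-PC and 4.04 in early control, 3.78 in middle C-PC and 2.52 in middle control, and 26.0 in late C-PC and 8.97 in late control. Late C-PC was the highest library and the intervals of the middle pair overlapped. Ngfr is also made by other cells of skin, among them cells of the hair follicle.

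**Figure D1:**
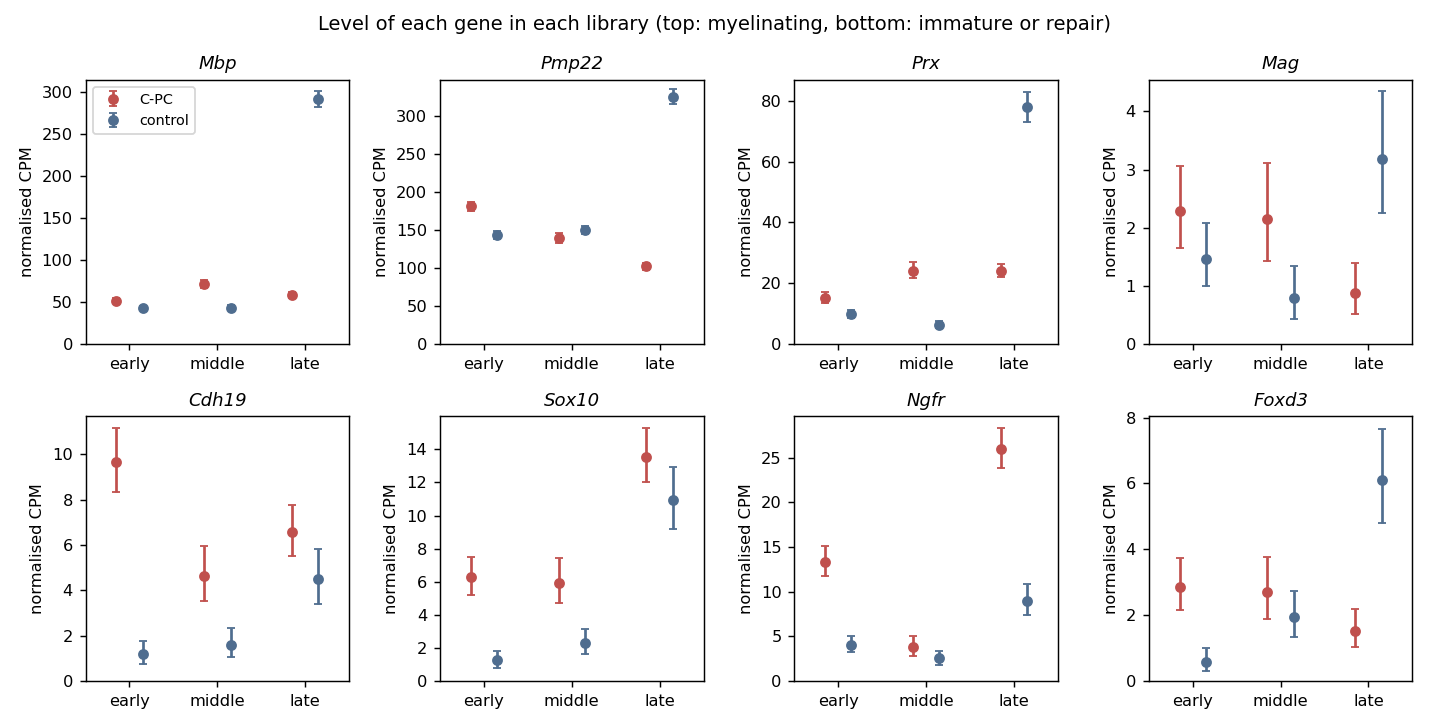
Level of each gene in normalised CPM (y axis, from 0) by stage (x axis), 1 library per point, C-PC left of control, with exact 95% Poisson intervals for counting error. Mbp, Pmp22, Prx, Mag and Foxd3 are highest in late control, Sox10 and Ngfr in late C-PC and Cdh19 in early C-PC.

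Per kilobase of the gene length in the tables, Pmp22 was the most abundant member in each of the 6 libraries, at 43.6 to 138 CPM per kb. Mbp followed in 5 of them at 5.12 to 34.7, and in late C-PC its 6.92 CPM per kb lay below the 7.54 of Ngfr. Mag ran at 0.197 to 0.781 CPM per kb.

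At the early stage the 4 immature or repair members were higher in C-PC and the 4 myelinating members differed less. All 4 of Cdh19, Sox10, Ngfr and Foxd3 were called apart and higher, where a gene is called apart when its log2 ratio is at least 1 in size and its exact 95% counting interval excludes 0. None of the 4 myelinating members was. Of 16589 genes compared, 9.78% were apart, 2.92% higher and 6.85% lower with C-PC. Cdh19 had 186 reads in C-PC and 25 in control, a log2 ratio of 2.92 (95% interval 2.41 to 3.68). Sox10, with 121 reads against 26, gave 2.25 (1.72 to 3.01), Foxd3 2.14 (1.40 to 3.35) and Ngfr 1.69 (1.36 to 2.09). The ratios of Prx, Mag, Pmp22 and Mbp were 0.62, 0.59, 0.33 and 0.25, all positive, with only the interval of Mag (-0.07 to 1.34) including 0. In bulk tissue, more Schwann cells and more of these RNAs per cell cannot be told apart.

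Melanocytes also make Sox10, so their markers are given for the early pair. The 9 melanocyte markers summed to 30.7 CPM in early C-PC and 27.3 in early control, of which Mitf made up most with 569 and 552 reads, and 5 and 6 of the 9 were at 0 reads. Tyr had 2 reads in early C-PC and 0 in early control, and Tyrp1 had 0 in both. Pmel had 18 reads in early C-PC and 21 in early control. The skeletal muscle markers summed to 4258 CPM in early C-PC and 9126 in early control, and 6 of the 8 were apart and lower. The fibroblast markers summed to 36549 and 31620 CPM. Of 4 basal keratinocyte markers that could be compared, 2 were apart and higher, at sums of 6.18 and 4.18 CPM. The part of these differences in the Schwann cell ratios was not tested.

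At the middle stage both classes held members that were higher in C-PC. Prx with 314 reads in C-PC and 111 in control gave a log2 ratio of 1.91 (1.61 to 2.26), Mag 1.30 (0.46 to 2.47), Cdh19 1.46 (0.86 to 2.23) and Sox10 1.33 (0.80 to 1.96). The other 4 members were not apart, with Mbp at 0.72, Ngfr at 0.56, Foxd3 at 0.45 and Pmp22 at -0.10. So 2 of 4 myelinating and 2 of 4 immature or repair members were apart and higher, where 23.6% of 17076 genes were, with 28.1% lower and 51.7% apart in all. Scaling by total reads in place of the deposited scaling, where the median over all genes was -0.66 in place of -0.13, took Mag, Cdh19 and Sox10 below 2-fold, at 0.80, 0.94 and 0.80, and turned Foxd3 to -0.07. The share of higher genes among those apart was 45.7% with the deposited scaling and 28.2% with total reads. Muscle markers were 186729 CPM in middle C-PC and 8101 in middle control, adipocyte markers 4663 and 282, and fibroblast markers 2687 and 57174, and their part in the result was not tested.

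At the late stage all 4 myelinating members were lower in C-PC, while the immature and repair members went different ways. Mbp had 1179 reads in C-PC and 3571 in control, a log2 ratio of -2.22 (-2.32 to -2.13). Mag gave -1.61 (-2.63 to -0.90), Prx -1.59 (-1.75 to -1.43) and Pmp22 -1.56 (-1.64 to -1.49). Of 17073 genes, 49.4% were apart and 23.1% apart and lower. Foxd3 was lower too, at -1.82 (-2.55 to -1.27), whereas Ngfr was higher at 1.62 (1.34 to 1.95), a direction shared by 26.3% of genes. Cdh19 at 0.64 and Sox10 at 0.41 were not apart. Under total reads, where the median over all genes was 0.69 in place of 0.15, the 4 myelinating members stayed apart and lower and Cdh19 passed 2-fold at 1.17, while the share of higher genes among those apart was 72.2% in place of 53.2%.

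Markers of several other cell types moved with the late result. Melanocyte markers, whose cells share Sox10, summed to 1396 CPM in late C-PC and 18.5 in late control, and all 9 were apart and higher. Hair follicle markers summed to 35056 and 1.79 CPM, muscle markers to 1286 and 181783, and endothelial markers to 248 and 961. Their part in the late ratios was not tested.

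**Figure D2:**
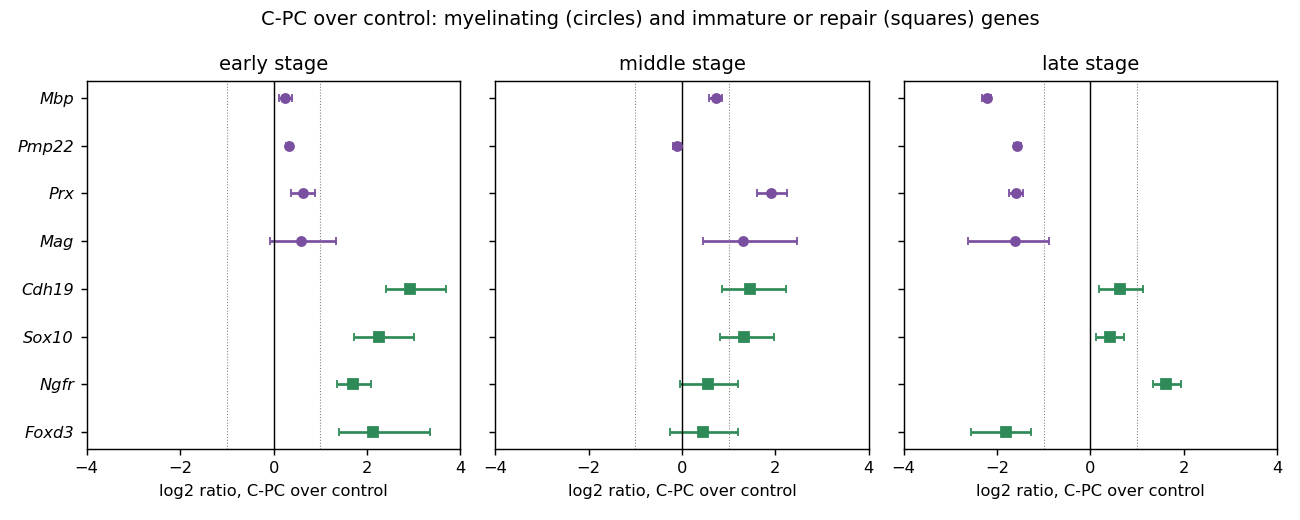
Log2 ratio of C-PC over control (x axis) for each gene (rows) at each stage, with exact 95% counting intervals, circles for myelinating and squares for immature or repair genes, and dotted lines at 2-fold. The 4 squares lie right of 1 early, and the 4 circles lie left of -1 late.

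Over the 3 stages together, no member passed. Limma with the stage as a block gave 0 of 16958 genes at an adjusted p of 0.05 (0% called), with 143 genes at an unadjusted p under 0.05. EdgeR's quasi-likelihood test on the recovered reads also called 0 genes, with 137 at an unadjusted p under 0.05, and DESeq2 called 47, no member among them. Among the members, the stage-averaged log2 difference was largest for Cdh19 at 1.67 (SE 0.72), with Sox10 at 1.33 (SE 0.64) and Ngfr at 1.29 (SE 0.54), and the limma adjusted p of every member was 1.00. This error holds any change of the C-PC difference from stage to stage, which cannot be told apart from the spread between samples. The authors' deposited adjusted p-values rest on 1 library per group, so no count of members by them is given.

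A contrast within a library does not depend on how libraries are scaled, apart from the prior count. The mean log2 CPM of the 4 myelinating genes minus that of the 4 immature or repair genes was 1.78 in early C-PC and 3.57 in early control, 2.70 in middle C-PC and 2.69 in middle control, and 1.30 in late C-PC and 3.26 in late control. The difference, C-PC minus control, was -1.79 (95% counting interval -2.16 to -1.42) early, 0.01 (-0.39 to 0.41) at the middle stage and -1.96 (-2.26 to -1.66) late. Leaving out each gene in turn left the early difference between -1.97 and -1.56 and the late one between -2.64 and -1.49, and moved the middle one between -0.31 and 0.36. Early, the mean of the immature or repair genes was 2.82 in C-PC and 0.58 in control on the log2 scale, and that of the myelinating genes 4.60 and 4.15. Late, the immature or repair means were 2.98 and 2.87, and the myelinating means 4.29 and 6.14. Melanocyte markers summed to 1396 CPM in late C-PC and 18.5 in late control, and hair follicle markers to 35056 and 1.79. The part of tissue make-up in this contrast was not tested at any stage.

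**Figure D3:**
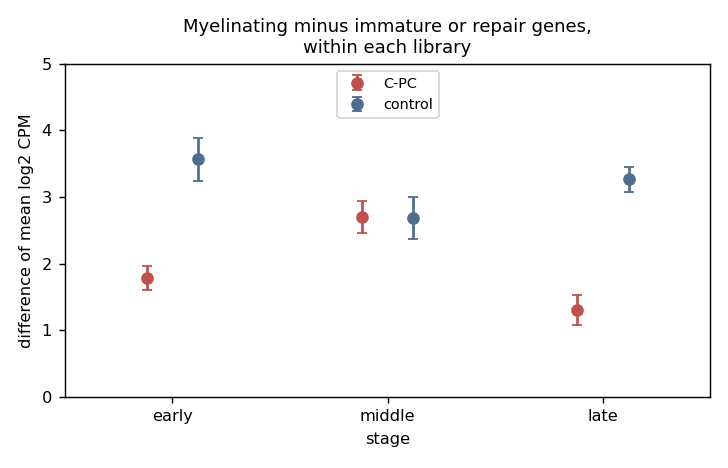
Mean log2 CPM of Mbp, Pmp22, Prx and Mag minus that of Cdh19, Sox10, Ngfr and Foxd3 (y axis) in each library by stage (x axis), C-PC left of control, with 95% counting intervals. The contrast is lower with C-PC early (1.78 against 3.57) and late (1.30 against 3.26), and 2.70 against 2.69 at the middle stage. The part of tissue make-up was not tested.

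The wider gene lists did not divide along the same line at the early stage. Of 15 other myelin genes, 14 could be compared early, and 9 were apart and higher in C-PC with 0 lower (median log2 ratio 1.59, against 0.00 for all genes). Of all genes compared early, 2.92% were apart and higher and 6.85% apart and lower. Gjb1, a gap junction protein of myelin, had 20 reads against 0, at least 7.25-fold higher. Pou3f1, a transcription factor of Schwann cells about to myelinate, gave 1.36 (0.62 to 2.36). Egr2, which switches on myelin genes, was not apart at 0.89 (0.49 to 1.32). Mal, Cldn19, Ncmap and Fa2h, chosen after their values were seen, gave 1.67, 1.70, 1.77 and 2.98. Of 17 other genes of immature, repair or non-myelinating Schwann cells, 16 were compared, with 2 higher and 2 lower (median 0.13). Sox2, a brake on myelination, had 31 reads against 2 (3.13, 2.10 to 7.18), and Shh 28 against 0, at least 10.2-fold higher. The lower genes were Artn and Bdnf, growth factors released by repair Schwann cells and likewise chosen after seeing values, at -1.29 (-1.77 to -0.88) and -1.63 (-2.42 to -1.03). Jun, the main transcription factor of the repair state, was at 0.10 and Gap43 at 0.02.

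At the middle stage 9 of 15 other myelin genes were apart and higher and 3 lower (median 1.33), against 23.6% higher and 28.1% lower of all genes. With total reads 6 were higher and 3 lower (median 0.91), where 2686 of 17076 genes were higher and 6851 lower. Cldn19, a tight junction protein of the sheath, had 59 reads in C-PC and 8 in control, a log2 ratio of 2.99 (2.24 to 4.59). The 3 lower were the transcription factor genes Egr2 at -2.77 and Pou3f1 at -1.62, and Fa2h, a fatty acid hydroxylase that skin also uses, at -1.91. At the late stage 9 of 15 were lower and 3 higher (median -1.18), against 23.1% lower and 26.3% higher of all genes. With total reads 5 were lower and 3 higher, where 2654 of 17073 genes were lower and 6899 higher. Drp2, a partner of periaxin, had 159 reads in late C-PC and 689 in late control (-2.72, -3.00 to -2.49), and Gjb1 gave -1.51 (-2.50 to -0.79). The 3 higher in late C-PC were again Egr2 (3.34), Pou3f1 (4.35) and Fa2h (1.90), against the direction of the list's median at both stages. Basal keratinocyte markers moved the same way as these 3 genes. They summed to 17.7 CPM in middle C-PC and 1194 in middle control, and to 2458 in late C-PC and 13.7 in late control. Their part in these ratios was not tested. Gldn and Sh3tc2 were among those not apart late. Among the other immature or repair genes, 1 was higher and 3 lower at the middle stage (median -0.45) and 5 higher and 2 lower late (median -0.03). Under total reads these were 1 higher and 6 lower at the middle stage and 6 higher and 0 lower late, where the median was 0.46. The 5 included Erbb3, the neuregulin co-receptor, at 3.50, Shh, also a signal of the growing hair follicle, at 5.39 and Fabp7 at 3.13. Of all genes 26.3% were higher late, and hair follicle markers stood at 35056 CPM in late C-PC and 1.79 in late control and melanocyte markers at 1396 and 18.5, whose part was not tested. S100b, a calcium-binding protein of Schwann cells, is on this second list and was chosen after its values were seen. It went the way of Drp2, with 181 reads in middle C-PC and 30 in middle control, and 81 in late C-PC and 127 in late control. Adipocyte markers summed to 4663 CPM in middle C-PC and 282 in middle control, and to 1581 in late C-PC and 6995 in late control. Their part in the S100b values was not tested.

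**Figure D4:**
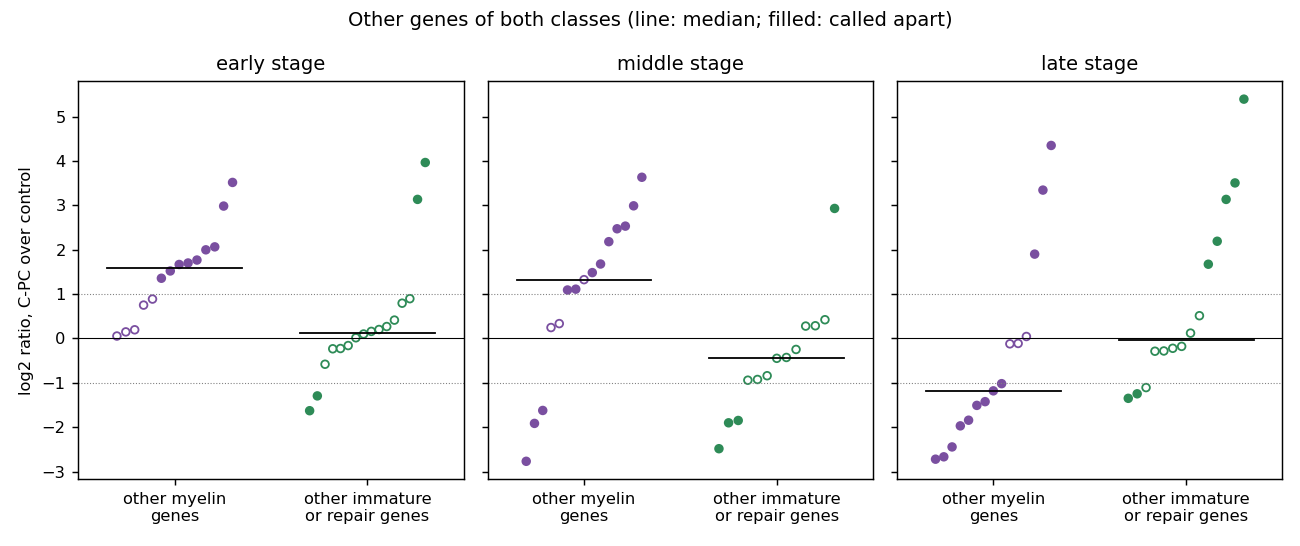
Log2 ratio of C-PC over control (y axis) for other myelin genes and other immature or repair genes at each stage, 1 point per gene, filled where called apart, with the list median as a line and dotted lines at 2-fold. The myelin median is 1.59 early, 1.33 at the middle stage and -1.18 late, and that of the other immature or repair genes 0.13, -0.45 and -0.03.

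Signals between axon and Schwann cell were compared as a list of 14 genes. Early, 1 was higher, Lgi4, a secreted Schwann cell protein needed for myelination, with 130 reads in C-PC and 42 in control (1.70, 1.24 to 2.29). Of all genes, 2.92% were higher early and 6.85% lower. At the middle stage 1 was higher, 2 were lower and 11 were not apart, where 51.7% of all genes were apart. With total reads 0 were higher and 5 lower, where 2686 of 17076 genes were higher and 6851 lower. Nrg1, the neuregulin that drives myelination, had 0 reads in middle C-PC and 422 in middle control, at least 104-fold lower, and 86 in late C-PC and 2 in late control. At the late stage 7 of the 14 were higher and 2 lower, against 26.3% and 23.1% of all genes, with the receptor genes Erbb2 at 3.58, Erbb3 at 3.50 and Notch1 at 2.66. The 2 lower were Dhh, the hedgehog signal of Schwann cells, at -1.66, and Adam22, the receptor for Lgi4, at -1.28. Erbb2, Erbb3, Notch1 and Nrg1 are also made by keratinocytes, whose basal markers were 2458 CPM in late C-PC and 13.7 in late control. Their part in these ratios was not tested.

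The ligands and partners of Ngfr were compared as a list of 13 genes. Early, 11 were compared, with 0 higher and Bdnf lower, against 2.92% and 6.85% of all genes. At the middle stage 6 of 12 were higher and 4 lower, against 23.6% and 28.1% of all genes. With total reads 4 were higher and 4 lower, where 2686 of 17076 genes were higher and 6851 lower. The 6 higher ones with the deposited scaling were Ntf3, Ntf5, Ntrk2, Ntrk3, Rtn4 and Sort1. All 8 muscle and all 6 adipocyte markers were higher in the same pair. Between middle C-PC and late control, 0 of 10 genes of the list were higher and 1 was lower, against 4.22% and 5.6% of all genes. Ntf5, which encodes neurotrophin 4, had 94 reads in middle C-PC and 5 in middle control (4.14, 3.39 to 6.32), and Sorcs2, a co-receptor of Ngfr, had 84 against 1347 (-3.55, -3.91 to -3.26). Late, 3 of 12 were higher and 3 lower, a share near that of all genes (26.3% and 23.1%), with Ntf3 and Rtn4 among the lower ones. All 6 hair follicle and all 5 basal keratinocyte markers were higher in late C-PC and all 8 muscle markers lower, and the part of these cells in the ratios of the list was not tested at either stage. Lingo1, a co-receptor that joins Ngfr in the receptor complex for myelin inhibitors, had 261 reads in late C-PC and 5 in late control (4.69, 3.84 to 6.72). Rtn4r, the ligand-binding part of that complex, had 52 against 2 (3.29, 2.15 to 7.16).

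Markers of central glia were low. Of 5 oligodendrocyte markers, 1, Myrf, had enough reads to be compared. The summed level of the list lay between 0.154 and 7.50 CPM per library. The 9 neuron markers summed to between 11.9 and 42.8 CPM, and up to 4 of them were at 0 reads in a library. Tubb3 made up most of the highest sum, at 40.3 CPM in late C-PC and 0.408 in late control. Of 4 neuron markers compared late, 1 was higher and 3 lower, against 26.3% and 23.1% of all genes.

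Reads per Sox10 read set each gene against a gene of the same lineage. Per Sox10 read in the same library, Mbp had 8.21 reads in early C-PC and 34.8 in early control, a log2 ratio of -2.09 (-2.71 to -1.46). Pmp22, Prx and Mag gave -2.01, -1.71 and -1.71 early. For Foxd3 the early interval included 0, at -0.02 (-1.11 to 1.07), as did those of Cdh19 at 0.68 (-0.18 to 1.54) and Ngfr at -0.62 (-1.33 to 0.08). Without this division, the early log2 ratio of Sox10 itself was 2.25. The median of the 14 other myelin genes compared early was 1.59. Fibroblasts and epithelia also make Pmp22, and the part of such cells in these early values was not tested. At the middle stage Pmp22 was lower per Sox10 read, at -1.47 (-2.03 to -0.92), as were Foxd3 at -0.90 (-1.78 to -0.03) and Mbp at -0.65 (-1.22 to -0.08). The middle intervals of Prx, Mag, Cdh19 and Ngfr included 0. Late, the 4 myelinating members were lower per Sox10 read, between -2.64 and -1.98, and so was Foxd3 at -2.31 (-2.99 to -1.64). Ngfr was higher at 1.22 (0.80 to 1.64), and the interval of Cdh19 included 0. The melanocyte markers at 1396 CPM in late C-PC and 18.5 in late control stand beside these late values, and their part was not tested.

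**Figure D5:**
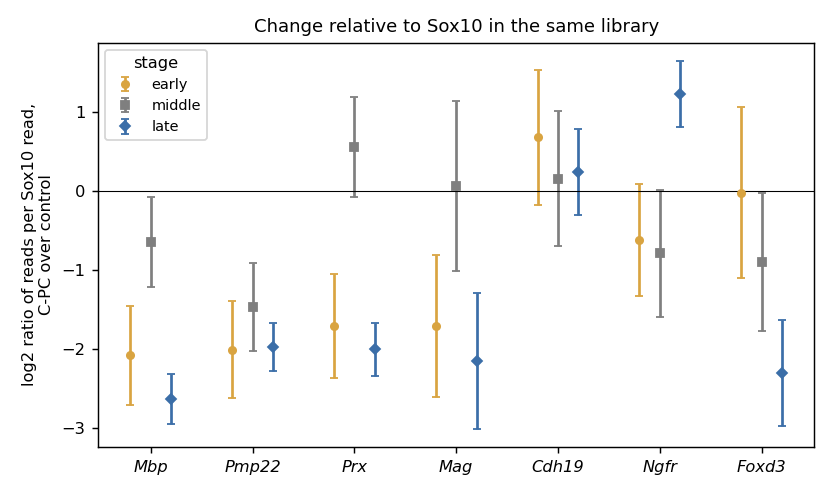
Log2 ratio, C-PC over control, of reads per Sox10 read within a library (y axis) for 7 genes (x axis) at the 3 stages, with 95% counting intervals. Early, Foxd3 (-0.02) lies near 0 while Mbp (-2.09) and Pmp22 (-2.01) lie well below it.

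Among untreated wounds all 8 members were higher in late control than in early control, where 24.1% of 16795 genes were apart and higher, 24.5% lower and 48.6% apart in all. Foxd3 gave a log2 ratio of 3.17 (2.54 to 4.44), Sox10 3.02 (2.53 to 3.81), Prx 2.96 (2.76 to 3.20), Mbp 2.76 (2.65 to 2.87), Cdh19 1.81, Pmp22 1.18, Ngfr 1.13 and Mag 1.05. Pmp22, Ngfr and Mag were under 2-fold with total reads, at 0.55, 0.52 and 0.46. There the median over all genes was -0.63 in place of -0.02, and 28.0% of the genes apart were higher in place of 49.6%. Of the 15 other myelin genes 13 were higher and 0 lower (median 3.02). In the same comparison all 8 muscle markers (median 4.50) and all 6 adipocyte markers (median 4.43) were higher in late control and 4 of 5 fibroblast markers lower, and their part was not tested. Between the C-PC libraries, Sox10 was apart and higher in late C-PC than in early C-PC at 1.10 (0.80 to 1.43), Mag apart and lower at -1.27 (-2.24 to -0.54), and the other 6 members were not apart, where 39.9% of 17334 genes were apart, 19% higher and 20.8% lower. All 9 melanocyte markers were higher too, with sums of 1396 CPM in late C-PC and 30.7 in early C-PC, and their part in the Sox10 ratio was not tested. Ngfr passed 2-fold with total reads, at 1.01 in place of 0.96. Whether the late against early difference varies between treatments was not tested, since each group is 1 library.

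Middle C-PC and late control, the 2 libraries richest in muscle, differed in these genes. Mbp had 927 reads in middle C-PC and 3571 in late control, a log2 ratio of -2.02 (-2.13 to -1.92). Prx gave -1.68 (-1.87 to -1.50), Foxd3 -1.14 (-1.80 to -0.58), Pmp22 -1.22 (-1.30 to -1.14) and Ngfr -1.21 (-1.76 to -0.75). These 5 of 8 members were apart and lower, where 5.6% of 15411 genes were, with 4.22% higher and 9.82% apart in all. Mag, Sox10 and Cdh19 were not apart, at -0.53, -0.86 and 0.04. Of the 15 other myelin genes 10 were lower and 0 higher (median -1.43). The 8 muscle markers themselves had a median log2 ratio of 0.03 between these libraries, and 0 of them were apart. Of 6 adipocyte markers 2 were lower and 0 higher (median -0.90), at sums of 4663 CPM in middle C-PC and 6995 in late control. The part of other cells in these ratios was not tested.

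By likeness of pattern, the 5 of 11627 protein-coding genes with a Pearson correlation nearest to the mean log2 CPM of Mbp, Pmp22, Prx and Mag over the 6 libraries were Bcap31 (0.998), Cenpx (0.991), Taf11 (0.990), Dynlrb1 (0.987) and Sncg (0.981). Among those nearest to the mean of Cdh19, Sox10, Ngfr and Foxd3 were Spg20 (0.978), Cadm4 (0.972), Nr2f6 (0.970) and Tpra1 (0.935). A correlation takes no account of the size of a change. Spg20 ran from 43.7 CPM in early control to 51.1 in late C-PC. Taf11 ran from 18.3 CPM in middle control to 26.2 in late control, and Sncg from 6.41 to 126 in the same libraries. Cadm4, an adhesion molecule by which Schwann cells hold the axon, stood at 24.3 and 6.84 CPM early, 16.4 and 8.19 at the middle stage and 43.7 and 28.5 late, C-PC before control each time. The points share their libraries, and the 5 are the top of many genes over few samples, so the correlations are given as a description.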

How the data were processed

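RNA sequencing was done in 6 mouse skin libraries, 1 per treatment and stage. Per the labels' protocols, RNA was harvested on columns, and the library kit does not mark strand. The aligner, counter and annotation release: not given in the sources used here. Also, the only build in the submitters' processing notes, hg38, is a human one, while the tables carry mouse identifiers whose coordinates for the 8 members equal those of GENCODE release M21 (GRCm38). The authors deposited, for each stage, a signal per gene, read counts scaled to a common size of the 2 libraries in a table. Whole reads were recovered from it, since every value divided by its column's step comes out whole (100% within 0.1 read). Per the file headers the deposited tables also hold the authors' log2 fold changes and p-values. Gene length and positions come from the same tables. Genes under 2 reads over a pair are not listed, and count here as 0 reads. No per-sample column was left unused.

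The log2 ratio within a stage was computed from the deposited signal plus a pseudocount of 2, with an exact 95% conditional binomial interval, where either library had at least 10 reads. Between tables, recovered reads were TMM-normalised (trimmed means, edgeR 4.0.16), with a prior count of 2 for log2 CPM. Intervals and floors cover counting error only, and where a library had 0 reads the fold is given against 3 reads. Limma 3.58.1 (trend, robust) tested the C-PC difference over the stages with Benjamini-Hochberg adjustment. The design foresaw edgeR for raw counts and limma for scaled values, and the values turned out scaled. On simulated counts with 16958 genes with seeded changes, this fit found 13.4% at 2-fold, 88.1% at 4-fold and 100% at 16-fold. It also made 10 false calls. The simulation gave every stage the same gene levels and the same change. The real libraries differ in tissue make-up, so these shares do not give the power of the fit on them. Nothing says that samples of a stage share an animal. Alternatives were total-read scaling, other pseudocounts and filters, edgeR, DESeq2 1.42.0, no block, and leaving out a stage or a gene.

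The members and lists were chosen with earlier results of these data known. The genes named by rule are the 8 members, up to 4 per other list with the largest ratios, and the 5 genes of most similar pattern. Genes outside that rule were picked with their values known, and only some are marked where they appear. Those without a mark include Drp2, Gldn, Sh3tc2, Jun, Gap43, Lgi4, Dhh and Adam22. Some genes that the rule names are not reported here. The comparisons late against early, middle C-PC against late control, and reads per Sox10 read were added after the data were seen. Promoters come from RefSeq (GRCm38.p6) and matched 5 of the 8 members by symbol.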

Additional observations from a re-analysis of the deposited data

Results flagged for a closer look

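Prx, Mag and Foxd3 were at least 2-fold apart in opposite directions at 2 stages of the same contrast. Prx was higher in C-PC at the middle stage, with a log2 ratio of 1.91, and lower in C-PC late, at -1.59. Mag gave 1.30 at the middle stage and -1.61 late. Foxd3 gave 2.14 early and -1.82 late. Each rests on 1 library per group, so the difference between stages was not tested. With total reads the middle value of Mag fell to 0.80.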

How the results depend on the processing

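Within a stage, no paired analysis was possible because each group holds 1 library. The fit over the 3 stages set C-PC beside its control in each stage through the stage block, and without that block it also called 0 genes. Counts of genes apart within a stage and between stages stayed within 1.5 times under total-read scaling, a pseudocount of 0.5 and, within stages, no filter. Over the stages, DESeq2 called 47 genes (3 higher, 44 lower), against 0 by limma under each other setting and by edgeR, with no member called in any. The myelinating minus immature contrast depends on which genes enter it. Leaving out 1 gene at a time gave 0.81 to 2.89 in early C-PC and 2.56 to 4.73 in early control, 1.91 to 3.89 in middle C-PC and 1.55 to 4.00 in middle control, and 0.50 to 2.73 in late C-PC and 2.52 to 4.73 in late control. Depth limits Mag and Foxd3 most, with 14 to 44 and 12 to 75 reads per library.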
